A study of Mus musculus with 36 samples.

Results

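The genes of cartilage differentiation and matrix were followed by RNA-seq in mouse forelimbs at E12.5 (days of embryonic development). They are a list of 34 genes named by symbol, from transcription factors of the chondrocyte to collagens, proteoglycans, receptors and sulfation enzymes, and all 34 were found among the 50833 genes of the count table. Distal forelimb (the future hand plate) and proximal forelimb (the future arm) were dissected from pairs of forelimbs of single embryos of the strain B6CBAF1. The alleles, made with CRISPR/Cas9, lack growing sets of CTCF binding sites (CBS) of the Hoxd cluster. The allele Del(CBS1) lacks 1 site. The allele Del(CBS1-2) lacks 2, Del(CBS1-3) lacks 3, Del(CBS1-4) lacks 4, and Del(CBS1-5) has lost 5. Wild type (WT) embryos carry none of these deletions. There were 3 libraries per genotype and tissue, 36 in all. The founders or clones behind each line and the litters of the embryos are not given in the labels. The libraries held 11062069 to 17727891 counts each. The dissection matched its labels, since 7 of 8 genes of distal limb identity were called higher in distal WT tissue, with Hoxd13 at 1024 CPM (counts scaled to library size) distally and 54.1 CPM proximally, and all 8 genes of proximal limb identity were called lower. The distal limb genes were uneven in proximal libraries, summing to 635, 525 and 279.8 CPM in Del(CBS1-4) and 329, 662 and 362 CPM in WT, with WT replicate 2 the highest of its group.

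Cartilage of the limb forms when mesenchymal cells condense and switch on SOX9, which with SOX5 and SOX6 drives the genes of the cartilage matrix. The matrix is a network of type II collagen fibrils, coated with type IX and copolymerised with type XI collagen, that traps aggrecan bound to hyaluronan through link protein. RUNX2 and RUNX3 later drive chondrocytes to hypertrophy, the stage marked by type X collagen. In the limb bud this programme starts proximally and reaches the digits last, so at this stage the arm holds the older cartilage.

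The promoters of the 5 genes with the largest difference between the WT tissues, among the 27 listed genes with a promoter sequence at hand, are shown because the genes moved far apart in both directions. They are the 250 bases before the RefSeq start (build GRCm38.p6), 5′ to 3′ on the strand of the gene, for Matn1 (chr4:130944135-130944384, plus strand), Epyc (chr10:97643818-97644067, plus strand), Runx3 (chr4:135120395-135120644, plus strand), Col10a1 (chr10:34389731-34389980, plus strand) and Cnmd (chr14:79662184-79662433, minus strand). Capitals mark matches on either strand to the SOX core motifs ACAATG and ACAAAG or the RUNX core motifs TGTGGT and TGCGGT, whose letters do not contain one another.
Matn1: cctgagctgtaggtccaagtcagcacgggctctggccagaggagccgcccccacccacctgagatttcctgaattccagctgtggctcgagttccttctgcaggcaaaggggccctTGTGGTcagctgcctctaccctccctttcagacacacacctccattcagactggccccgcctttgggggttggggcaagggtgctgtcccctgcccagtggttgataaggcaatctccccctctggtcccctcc
Epyc: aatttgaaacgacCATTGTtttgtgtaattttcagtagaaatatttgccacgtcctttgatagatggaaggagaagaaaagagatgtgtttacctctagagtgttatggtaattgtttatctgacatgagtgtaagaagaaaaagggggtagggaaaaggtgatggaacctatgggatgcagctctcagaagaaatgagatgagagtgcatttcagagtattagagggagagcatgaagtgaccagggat
Runx3: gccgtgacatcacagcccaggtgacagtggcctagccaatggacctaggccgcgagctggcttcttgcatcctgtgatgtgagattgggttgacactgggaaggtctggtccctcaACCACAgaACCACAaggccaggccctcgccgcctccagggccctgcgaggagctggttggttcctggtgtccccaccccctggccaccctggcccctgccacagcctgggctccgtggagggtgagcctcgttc
Col10a1: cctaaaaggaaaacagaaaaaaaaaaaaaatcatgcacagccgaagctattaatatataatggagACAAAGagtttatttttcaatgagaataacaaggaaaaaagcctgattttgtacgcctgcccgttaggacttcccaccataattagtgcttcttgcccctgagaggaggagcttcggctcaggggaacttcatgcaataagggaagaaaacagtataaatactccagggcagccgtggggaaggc
Cnmd: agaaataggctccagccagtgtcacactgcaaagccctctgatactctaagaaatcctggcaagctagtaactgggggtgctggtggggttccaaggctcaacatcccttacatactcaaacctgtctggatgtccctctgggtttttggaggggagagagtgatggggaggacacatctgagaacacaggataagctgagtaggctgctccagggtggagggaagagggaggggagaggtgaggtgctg
Among the windows shown, a RUNX core stood in those of Matn1 and Runx3, with 2 matches in Runx3, and a SOX core in those of Epyc and Col10a1. Epyc and Runx3 each have another window, at a later start, that is not shown. It held 3 SOX cores in Epyc and 0 RUNX cores in Runx3. Over all 40 windows of the 27 genes, 10 held a SOX core and 9 a RUNX core. Among all 32851 promoter windows of the same length, 25.2% held a SOX core and 18.6% a RUNX core, so the cartilage genes were near the background in both. Epyc, which is lower distally, and Col10a1, which is higher, each had 1 SOX core in the window shown.

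In levels per gene length (FPKM, fragments normalised to gene length and library depth), Col2a1, the chain of type II collagen, was the highest in both WT tissues, at 130.4 ± 15.5 FPKM in distal and 294 ± 7.42 FPKM in proximal tissue (SD, n = 3 each). Wwp2, a ubiquitin ligase whose intron carries the cartilage microRNA gene Mir140, followed with 104 ± 21.8 FPKM distally, and with 153, 134 and 165 FPKM in the proximal libraries. In distal tissue the next were Col9a1 at 93.8 ± 9.71 FPKM and Sox9 at 63.0 ± 0.612 FPKM. In proximal tissue they were Col9a2 at 110.4 ± 5.41 FPKM and Col9a1 at 89.1 ± 15.7 FPKM, and no library of either reached the lowest Wwp2 library. The order of neighbours was not fixed throughout, as the distal libraries of Wwp2 and Col9a1 overlapped. At the low end, Ucma (a vitamin K dependent protein of the growth plate) was listed at 0 in all 3 distal WT libraries, and Snorc (a small membrane proteoglycan of chondrocytes) averaged 0.0667 ± 0.0577 distal and 0.925 ± 0.720 proximal FPKM. Ucma stayed under the count filter in every comparison, and its highest value in any library was 0.327 CPM.

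**Figure D1:**
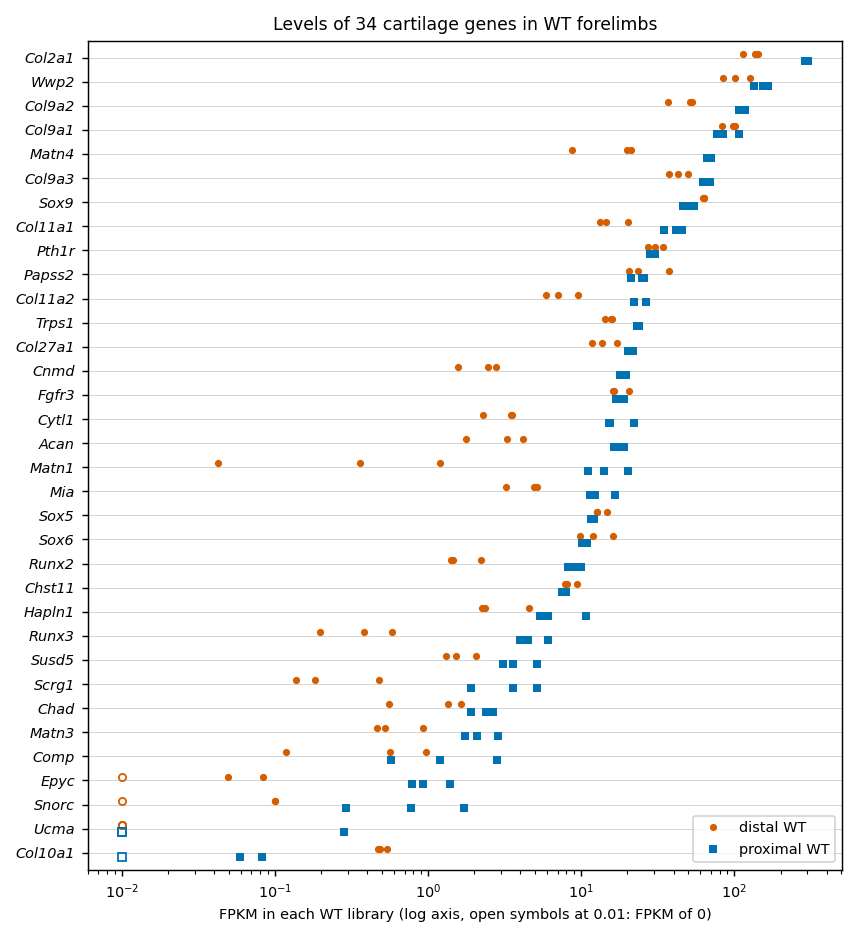
Level of each of the 34 genes in every WT library on a log axis of FPKM, with 3 distal libraries (circles) and 3 proximal libraries (squares) per gene and open symbols for a value of 0. Col2a1 lies highest in both tissues, while Matn1, Runx3, Epyc and Scrg1 lie far lower in distal tissue and Col10a1 higher.

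In WT embryos most of the cartilage genes were lower in distal than in proximal tissue, while Sox5, Sox9 and Col10a1 were higher. Of the 32 genes that passed the count filter, 3 were called higher and 21 lower distally by edgeR's quasi-likelihood test at an adjusted p under 0.05, against 30.7% of all 14918 genes called in either direction. The median log2 fold change of the 32 genes was -1.27. As this is bulk tissue, fewer cartilage cells and less RNA per cell cannot be told apart. Markers of other cell types differed in the same libraries. Summed skeletal muscle genes (18 of 18 called lower distally) stood at 46.6 to 47.9 CPM in distal and 2542 to 2913 CPM in proximal libraries, and tendon genes (4 of 5 lower) at 72.1 to 80.6 CPM distally and 223 to 263 CPM proximally. Nerve and Schwann genes (5 of 6 lower) summed to 63.9 to 71.7 CPM distally and 164 to 189.6 CPM proximally, and proliferation genes (6 of 6 higher) to 2519 to 2822 CPM distally and 1752 to 1879 CPM proximally. Their part in the cartilage values was not tested. Snorc and Ucma were the 2 genes under the filter.

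Sox9, the regulator that starts chondrogenesis, had 374, 386 and 376 CPM in distal libraries and 304, 279.7 and 334 CPM in proximal libraries. The lowest distal library was above the highest proximal one, and the log2 fold change was 0.31 ± 0.07 (SE; edgeR adjusted p = 0.0103). Sox5, its partner, was also higher distally (0.26 ± 0.07, edgeR adjusted p = 0.0276). Sox6 averaged 147 ± 35.5 CPM in distal and 119 ± 1.68 CPM in proximal libraries, which overlapped, and was called with the embryo as a block but not without it. The blocked edgeR value was 0.28 ± 0.10 (adjusted p = 0.0495), and with the block 38.6% of all genes were called.

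The transcription factors of maturation went the other way. Runx2, required for chondrocyte hypertrophy and bone, had 11.9, 15.9 and 8.72 CPM distally and 57.2, 63.5 and 62.6 CPM proximally. Runx3 had 3.21, 2.17 and 1.11 CPM distally and 25.6, 22.4 and 34.8 CPM proximally. Both were lower in every distal library, with log2 fold changes of -2.34 ± 0.18 (edgeR adjusted p = 2.59e-05) and -3.68 ± 0.32 (edgeR adjusted p = 5.80e-05). Trps1, a GATA-type repressor of the growth plate, had 186, 193 and 183 CPM distally and 295, 299 and 302 CPM proximally. Its difference was small beside those of the RUNX genes, and no libraries overlapped (-0.68 ± 0.05, edgeR adjusted p = 1.63e-05). Runx2 overlaps Supt3 on the opposite strand, which held 21.3 CPM distally and 21.4 CPM proximally.

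Of the 8 collagen genes, 6 were lower distally, 1 was higher and 1 was not called. Col2a1 had 1079.7, 1062 and 878 CPM in distal and 2241, 2246 and 2360.2 CPM in proximal libraries (-1.18 ± 0.08, edgeR adjusted p = 1.40e-05). Col9a2, a chain of type IX collagen, had 223, 226 and 160.1 CPM distally and 465, 503 and 469 CPM proximally (-1.24 ± 0.12). The distal libraries of both were all below the proximal ones. Type XI chains Col11a2 (-1.66 ± 0.16) and Col11a1 (-1.36 ± 0.16) were lower too, as were Col9a3 (-0.60 ± 0.10) and the fibrillar collagen gene Col27a1 (-0.59 ± 0.12). The 3 chains of type IX collagen therefore differed in their tissue values, since Col9a1 averaged 421 ± 36.3 CPM distally and 429 ± 75.1 CPM proximally, with overlapping libraries and a log2 fold change of -0.03 ± 0.11.

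Col10a1, the gene of hypertrophic cartilage, ran against the rest of the matrix genes at a low level. It had 2.39, 2.17 and 2.23 CPM in distal and 0, 0.376 and 0.272 CPM in proximal libraries, so no proximal library came near the distal ones. The log2 fold change was 3.27 ± 0.56 (edgeR adjusted p = 0.00258). Col10a1 overlaps Nt5dc1, a gene on the opposite strand, which averaged 13.2 ± 2.71 CPM distally and 9.58 ± 1.25 CPM proximally (SD, n = 3 each; 0.45 ± 0.18, edgeR adjusted p = 0.0895). It is not stated whether the authors' counting used strand, so reads where the genes overlap may have been split between them or dropped.

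In the aggrecan network, 5 of 6 genes were lower distally. Acan, the large proteoglycan of cartilage, had 25.4, 33.5 and 15.2 CPM in distal and 116, 156 and 135 CPM in proximal libraries (-2.47 ± 0.24, edgeR adjusted p = 1.12e-04). No distal library reached the lowest proximal one. Matn1, an adaptor of the collagen network, had 3.56, 1.05 and 0.124 CPM distally and 33.2, 59.4 and 42.6 CPM proximally (-4.87 ± 0.56), and its distal level differed widely between embryos on few counts. Matn4 (-2.08 ± 0.27), Matn3 (-1.80 ± 0.32) and the link protein gene Hapln1 (-1.30 ± 0.32) were also lower. Comp, a pentameric protein that binds collagens, had 2.94, 0.419 and 1.42 CPM distally and 3.88, 9.58 and 1.57 CPM proximally, and these overlapped.

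Among the small secreted and membrane proteins, 6 of the 7 tested were lower distally. Cnmd, an inhibitor of vessel growth in cartilage, had 5.54, 3.21 and 5.20 CPM in distal and 41.9, 42.0 and 37.6 CPM in proximal libraries, and gave the smallest p of the list (-3.12 ± 0.17, edgeR adjusted p = 4.36e-06). Cytl1, a secreted protein of chondrocytes, had 4.85, 3.35 and 5.26 CPM distally and 22.4, 21.6 and 32.1 CPM proximally (-2.49 ± 0.22, edgeR adjusted p = 6.31e-05). Both stood apart in every library. Epyc, a small leucine-rich proteoglycan, had 3, 0 and 2 counts in the distal libraries, which is 0.205, 0 and 0.124 CPM distally against 2.33, 3.51 and 1.97 CPM proximally (-4.46 ± 0.59). Scrg1 (-3.75 ± 0.54), Mia (-1.64 ± 0.23) and Susd5 (-1.29 ± 0.23) were lower as well. Chad, which binds collagen and integrins, averaged 2.88 ± 1.38 CPM distally and 5.75 ± 0.959 CPM proximally and was called with the embryo as a block but not without it, at a blocked edgeR value of -1.06 ± 0.24 (adjusted p = 0.00559). Chad overlaps Acsf2 on the opposite strand, whose log2 fold change was -0.31 ± 0.33 (edgeR adjusted p = 0.531).

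Of the receptors and enzymes, 1 of 5 was called. Wwp2 was lower distally, at 462 ± 99.5 CPM against 669 ± 72.7 CPM proximally (-0.54 ± 0.14, edgeR adjusted p = 0.0210). Fgfr3, a receptor that restrains chondrocyte growth, averaged 82.2 ± 12.3 CPM distally and 74.6 ± 2.39 CPM proximally. Pth1r, the receptor of parathyroid hormone related protein, averaged 101 ± 12.8 CPM distally and 96.5 ± 3.03 CPM proximally. Papss2, which makes the sulfate donor, and Chst11, which sulfates chondroitin, had log2 fold changes of 0.22 ± 0.23 and 0.11 ± 0.08. The distal and proximal libraries of these 4 genes overlapped.

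The tissue difference was found again in each of the 5 alleles, whose libraries are separate from those of WT. The counts higher and lower distally were 2 and 23 of 32 genes in Del(CBS1) (36.1% of all genes called), 7 and 24 of 33 in Del(CBS1-2) (50.7%), 3 and 21 of 32 in Del(CBS1-3) (34.2%), 6 and 22 of 33 in Del(CBS1-4) (38.6%), and 3 and 21 of 32 in Del(CBS1-5) (40.4%). The medians of the tested genes were -1.31, -1.17, -1.16, -0.96 and -1.22 in these alleles. Of the 32 genes tested in all 6 genotypes, 19 were called lower and 2, Sox9 and Col10a1, higher in all of them. The share of all genes called the same way in all 6 genotypes is not given here. These 2 counts therefore do not compare the listed genes with other genes. In Del(CBS1-5) the distal and proximal libraries of Sox9 overlapped. In limma on log2(FPKM + 1) only 1 gene was called higher in WT and 1 in Del(CBS1), so not both of these were. Fgfr3, Pth1r, Papss2 and Sox6 were called higher distally in 1 or 2 alleles each, among them Del(CBS1-2) every time, and Chst11 in none. These calls are without the embryo block, and among them no gene was higher in 1 genotype and lower in another. With the block, Papss2, Pth1r and Chst11 were called lower distally in Del(CBS1-3), and Chst11 was called higher in Del(CBS1-4). Col9a1, called lower in 2 alleles without the block, was called higher in Del(CBS1-3) with it. The direction of these genes therefore differed between alleles. Snorc had 0 counts in all 3 distal Del(CBS1-2) libraries against 1.75, 2.42 and 1.98 CPM in proximal ones, at least 32.6-fold lower by a limit of 3 counts over the group. Epyc had 0 counts in all 3 distal Del(CBS1-5) libraries against 2.84, 1.80 and 5.29 CPM in proximal ones, at least 47.3-fold lower by the same limit.

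**Figure D2:**
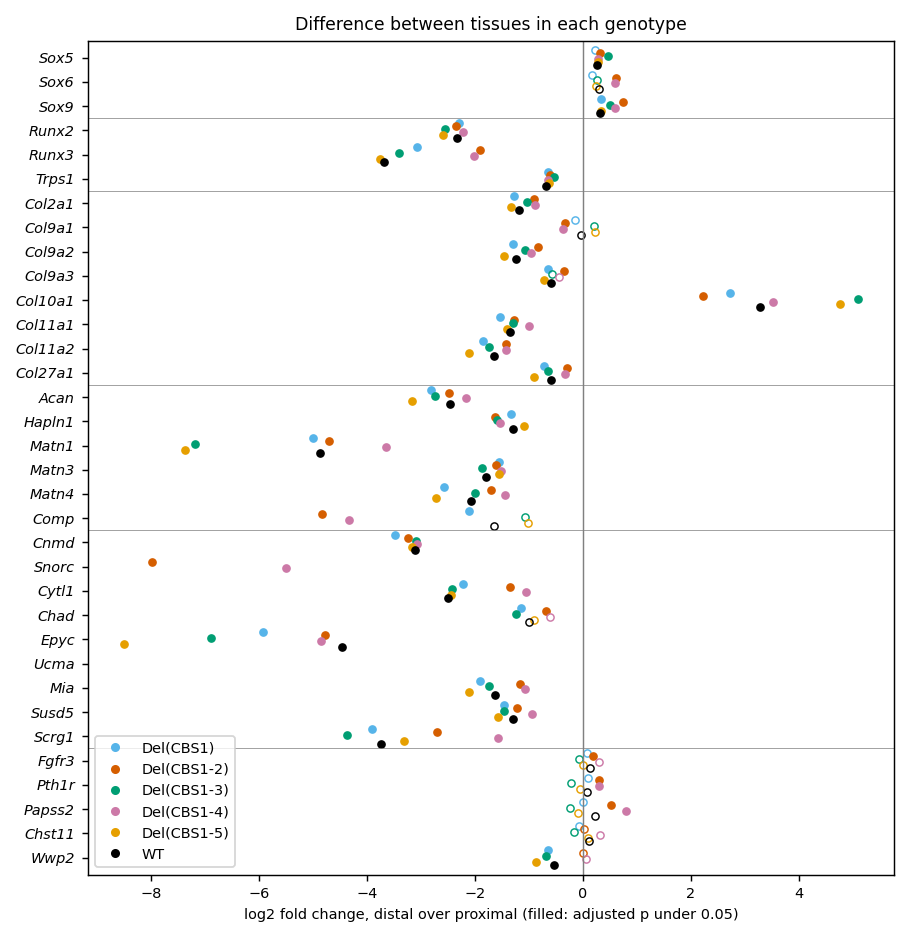
Log2 fold change of distal over proximal tissue for each gene (rows, grouped by role) in the 6 genotypes, 3 libraries per tissue and genotype, with filled circles for an adjusted p under 0.05. Most matrix genes lie left of 0 in every genotype and Sox9 and Col10a1 to its right; fitted values of Snorc in Del(CBS1-2) and Epyc in Del(CBS1-5) rest on 0 distal counts and are no measured size.

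Set against WT in distal tissue, cartilage genes were called in 1 of the 5 alleles by edgeR and in 2 by DESeq2. Del(CBS1-2) embryos had 9 of the 31 tested genes higher and 0 lower than WT, against 10.5% of all 15361 genes called in either direction. The 31 genes had a median log2 fold change of 0.62. The 9 were 5 collagen genes, the transcription factor gene Runx3, the matrilin gene Matn3, the secreted Cytl1 and the receptor gene Pth1r. Snorc, Epyc and Ucma lay under the distal filter.

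Runx3 had 9.22, 8.84 and 4.32 CPM in distal Del(CBS1-2) libraries and 3.21, 2.17 and 1.11 CPM in distal WT libraries (1.77 ± 0.38, edgeR adjusted p = 0.00947). Cytl1 had 18.1, 16.7 and 11.2 CPM in Del(CBS1-2) and 4.85, 3.35 and 5.26 CPM in WT (1.75 ± 0.45, edgeR adjusted p = 0.0206). Both were higher in all 3 Del(CBS1-2) libraries than in any WT library. Matn3 had 7.60, 6.90 and 4.75 CPM in Del(CBS1-2) and 1.98, 4.40 and 2.29 CPM in WT (1.13 ± 0.30, edgeR adjusted p = 0.0226). Here the lowest Del(CBS1-2) library was just above the highest WT library.

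Col2a1 had 1529, 1559 and 1522 CPM in distal Del(CBS1-2) libraries and 1079.7, 1062 and 878 CPM in distal WT libraries (0.59 ± 0.15, edgeR adjusted p = 0.0199). The 3 Del(CBS1-2) libraries were close to each other and all above WT. Col10a1 had 4.22, 4.62 and 3.38 CPM in Del(CBS1-2) and 2.39, 2.17 and 2.23 CPM in WT (0.83 ± 0.21, edgeR adjusted p = 0.0182), while Nt5dc1, which overlaps it, averaged 10.5 CPM in Del(CBS1-2) and 13.2 CPM in WT. Type XI collagen rose in both chains. Col11a2 had 124, 139 and 119 CPM in Del(CBS1-2) and 57.1, 82.0 and 50.4 CPM in WT (0.99 ± 0.26, edgeR adjusted p = 0.0221). Col11a1 had 288, 298 and 246 CPM in Del(CBS1-2) and 158, 225 and 149.8 CPM in WT (0.62 ± 0.19, edgeR adjusted p = 0.0479). Of the type IX chains, Col9a3 was called, with 320.1, 324 and 303 CPM in Del(CBS1-2) and 178, 212 and 159 CPM in WT (0.77 ± 0.21, edgeR adjusted p = 0.0249). The Del(CBS1-2) values of these collagens were above all WT values. Pth1r, the ninth gene, averaged 132 ± 6.57 CPM in Del(CBS1-2) and 101 ± 12.8 CPM in WT (0.36 ± 0.11).

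**Figure D3:**
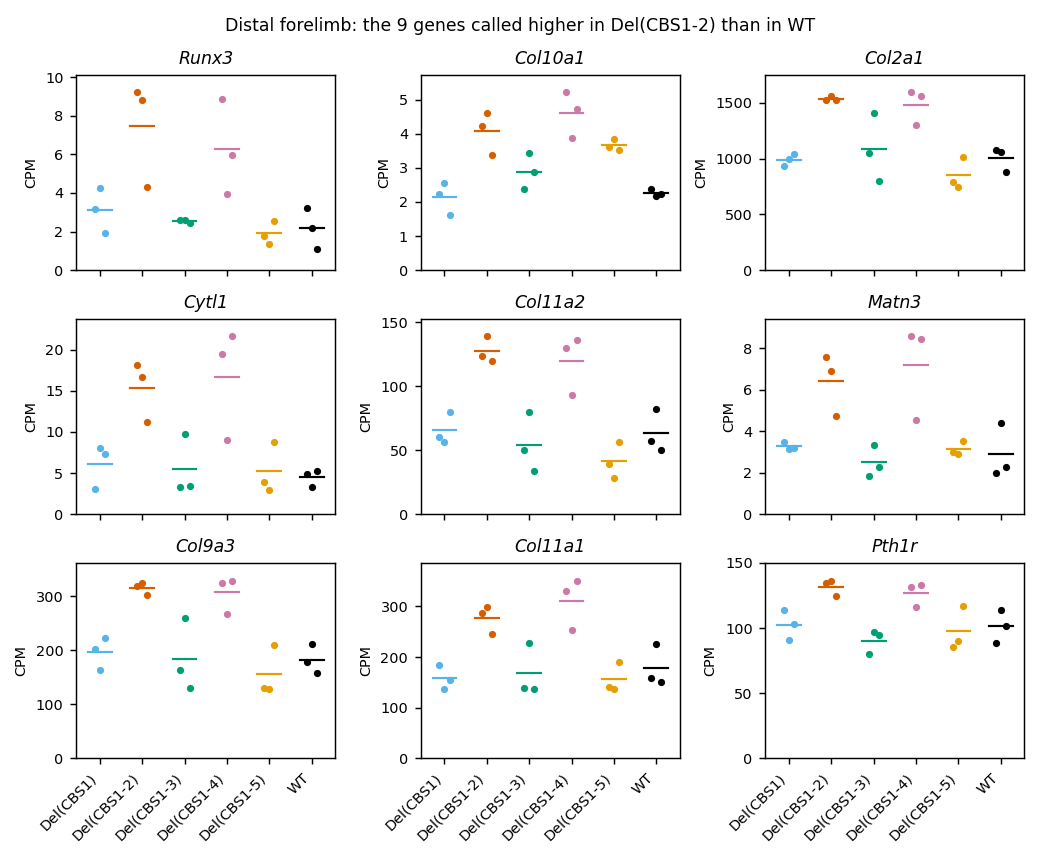
CPM in each distal library (points, 3 per genotype) and group mean (short lines) for the 9 genes called higher in Del(CBS1-2) than in WT. The Del(CBS1-2) and Del(CBS1-4) points lie above the WT points in all 9 panels, with 1 Del(CBS1-4) library of Matn3 just above the highest of WT, and libraries of the other 3 alleles mix with those of WT in most panels.

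Of the distal genes not called, 10 also had all 3 Del(CBS1-2) libraries above WT, so 19 of 31 did, against 16.8% of all genes. Susd5 and Col9a2 missed the threshold narrowly, with 0.95 ± 0.30 (edgeR adjusted p = 0.0504) and 0.68 ± 0.22 (edgeR adjusted p = 0.0525). Acan averaged 46.1 ± 1.79 CPM in Del(CBS1-2) and 24.7 ± 9.18 CPM in WT (0.89 ± 0.37). The SOX genes stood outside this pattern, at 0.02 ± 0.11 for Sox9, 0.09 ± 0.15 for Sox6 and -0.20 ± 0.08 for Sox5, whose 3 Del(CBS1-2) libraries were below all of WT. The unadjusted p was under 0.05 for 20 genes above and 1 below WT, with 12.4% of all genes above. Leaving out 1 library left 4 genes called without WT replicate 1, 3 without WT replicate 3, and 1, 1 and 5 without Del(CBS1-2) replicates 1, 2 and 3.

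Marker sums of some other cell types also differed from WT in the same libraries. Their counts of called genes stand against 10.5% of all genes called in this comparison, and 2 of 18 muscle genes is near that share. The summed level of 18 skeletal muscle genes was 181, 104 and 93.9 CPM in distal Del(CBS1-2) libraries and 47.9, 46.8 and 46.6 CPM in distal WT libraries, with 2 genes called higher, Myod1 and Pax7, and none at 0. With a muscle score of each library as a covariate, the median of the 31 cartilage genes was 0.39 and 0 were called by edgeR. In that fit 9 above and 1 below WT had an unadjusted p under 0.05. The share of all genes with such a p under the covariate is not given, here or in the comparisons below. Of the 9 genes called without the covariate, Runx3 then had the lowest edgeR adjusted p, at 0.116, and Cytl1 had a log2 fold change of 1.02 ± 0.44. Sums over 6 joint interzone genes were 659 to 711 CPM in Del(CBS1-2) and 409.9 to 517 CPM in WT, with Sfrp2, Gdf6 and Gdf5 called higher. Sums over 5 tendon genes were 99.3 to 115 CPM in Del(CBS1-2) and 72.1 to 80.6 CPM in WT, with Egr1 called higher. The 9 ectoderm genes summed to 620.4 to 725 CPM in Del(CBS1-2) and 507 to 536 CPM in WT, with 2 called higher and 1 lower. The 7 erythroid genes summed to 2168 to 2277 CPM in Del(CBS1-2) and 2549 to 3446 CPM in WT, with 2 called lower, and the 6 proliferation genes to 2403 to 2506 CPM in Del(CBS1-2) and 2519 to 2822 CPM in WT, with 2 called lower. Endothelial genes summed to 351 to 362 CPM in Del(CBS1-2) and 320 to 346 CPM in WT, with 0 of 7 called. Nerve and Schwann genes summed to 74.1 to 76.7 CPM in Del(CBS1-2) and 63.9 to 71.7 CPM in WT, with 1 of 6 higher. Macrophage genes had 1 of 6 called higher. The 8 genes of proximal limb identity summed to 258 to 300 CPM in Del(CBS1-2) and 230 to 239 CPM in WT. The sums of the distal limb genes overlapped, at 2223 to 2400 CPM in Del(CBS1-2) and 2341 to 2597 CPM in WT. Bone markers stayed low, at 7.81 to 10.3 CPM in Del(CBS1-2) and 8.91 to 10.9 CPM in WT. By their sex-linked genes, 3 of 3 embryos of the allele and 2 of 3 WT embryos were female. The muscle sums of Del(CBS1-2) and WT did not overlap, so the covariate cannot tell muscle content from the allele. The part of the other markers, and of sex, in the cartilage values was not tested.

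In the other 4 alleles no cartilage gene was called in distal tissue. The tested genes had medians of -0.02 in Del(CBS1), -0.11 in Del(CBS1-3), 0.69 in Del(CBS1-4) and -0.23 in Del(CBS1-5), and the lowest edgeR adjusted p were 0.423, 0.246, 0.0613 and 0.205. Of all genes, 0.0325%, 0.00651%, 0.0846% and 0.0651% were called in these alleles. Genes with an unadjusted p under 0.05 numbered 0 higher and 4 lower in Del(CBS1), 1 and 2 in Del(CBS1-3), 23 and 0 in Del(CBS1-4), and 1 and 5 in Del(CBS1-5). Of all 15361 genes, 1488, 2135, 2347 and 2008 had such a p in either direction, in the same order. DESeq2 called 5 genes higher in Del(CBS1-4) and 0 in the other 3. Of all genes it called 65 in Del(CBS1), 136 in Del(CBS1-3), 295 in Del(CBS1-4) and 119 in Del(CBS1-5).

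Del(CBS1-4) gave large values without calls in edgeR. The unadjusted count of 23 of 31 stands against 8.12% of all genes, and 19 of 31 had all 3 Del(CBS1-4) libraries above WT, against 9.71% of all genes. Col10a1 had 5.21, 3.89 and 4.74 CPM in Del(CBS1-4) and 2.39, 2.17 and 2.23 CPM in WT (1.02 ± 0.21, edgeR adjusted p = 0.0613, DESeq2 0.0118). Cytl1 had 19.5, 9.04 and 21.6 CPM in Del(CBS1-4) and 4.85, 3.35 and 5.26 CPM in WT (1.88 ± 0.45, edgeR adjusted p = 0.0873, DESeq2 0.0307). Replicate 2 was the lowest of the 3 Del(CBS1-4) libraries in both. Matn3, Runx3 and Col11a1, the other 3 genes that DESeq2 called, had 1.31 ± 0.30, 1.53 ± 0.39 and 0.80 ± 0.19 in edgeR. Leaving out WT replicate 2 gave 10 called genes and leaving out Del(CBS1-4) replicate 2 gave 5. The muscle genes summed to 63.8, 51.4 and 157 CPM in these Del(CBS1-4) libraries, with replicate 3 the highest. With the muscle score as a covariate 18 cartilage genes had an unadjusted p under 0.05, all higher, and the share of all genes is not given. These muscle sums were all above those of WT, so the covariate cannot tell muscle content from the allele. Other marker sums stood apart from WT too. Joint interzone genes summed to 581 to 723 CPM in Del(CBS1-4) and 409.9 to 517 CPM in WT, and ectoderm genes to 607 to 637 CPM in Del(CBS1-4) and 507 to 536 CPM in WT. Tendon genes summed to 85.8 to 137 CPM in Del(CBS1-4) and 72.1 to 80.6 CPM in WT, and erythroid genes to 1896 to 2333 CPM in Del(CBS1-4) and 2549 to 3446 CPM in WT. Their part was not tested. The Del(CBS1-2) and Del(CBS1-4) comparisons share the 3 WT libraries, so their values side by side are not independent.

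**Figure D4:**
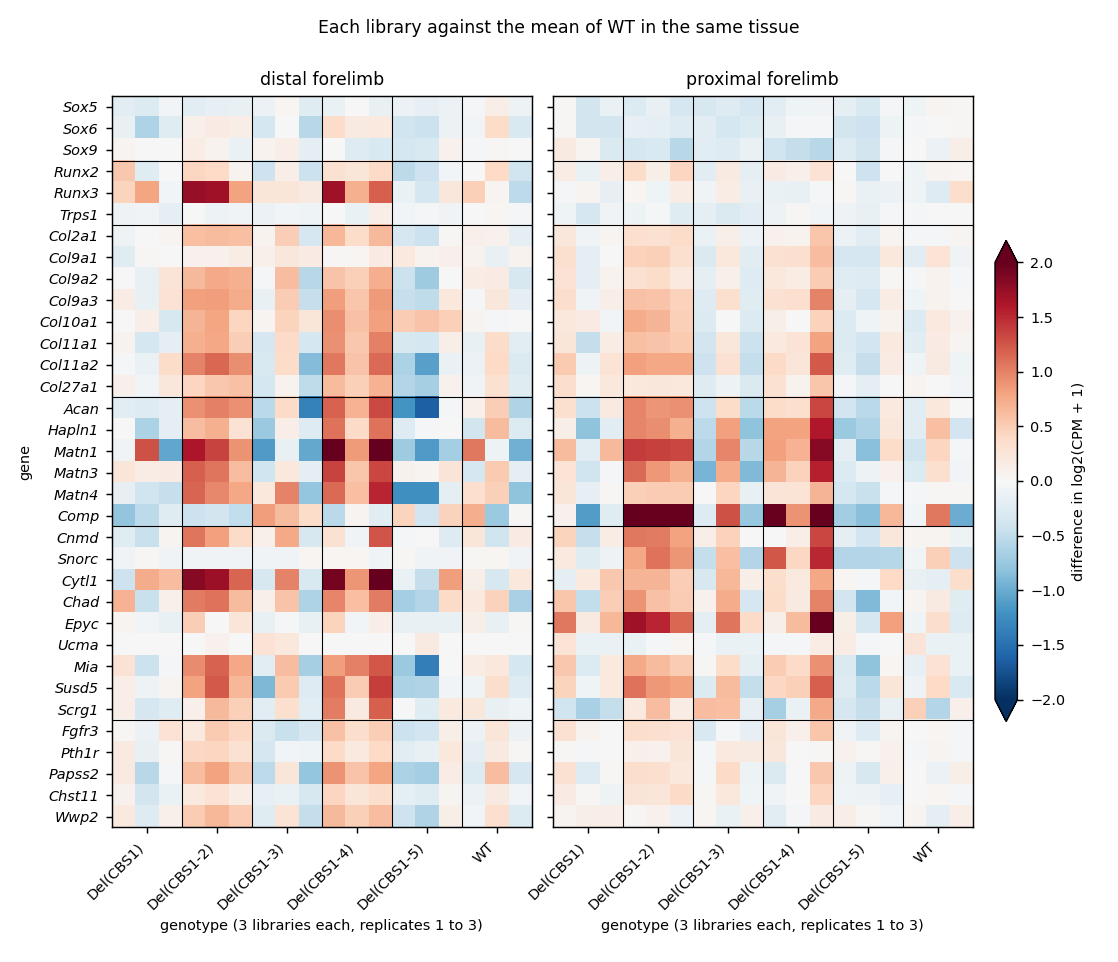
Difference in log2(CPM + 1) of each library from the mean of WT in the same tissue, with genes in rows grouped by role and the 3 libraries of each genotype in columns. Del(CBS1-2) and Del(CBS1-4) columns are mostly red below the SOX genes in both tissues, and single embryos of Del(CBS1-3) and Del(CBS1-5) stand out from the other 2 of their line.

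In proximal tissue no cartilage gene was called in any allele by edgeR, with Col10a1 and Ucma under the filter. Of all genes, 0.0443% were called in Del(CBS1), 0.721% in Del(CBS1-2), 0.0696% in Del(CBS1-3), 0.0% in Del(CBS1-4) and 0.0696% in Del(CBS1-5). The medians of the 32 tested genes were 0.05, 0.45, -0.04, 0.41 and -0.14, and the lowest edgeR adjusted p were 0.619, 0.0703, 0.155, 0.168 and 0.511. Genes with an unadjusted p under 0.05 numbered 1 higher and 2 lower, 24 and 3, 0 and 4, 19 and 1, and 0 and 2, in the order of the alleles. Of all 15813 genes, 1123, 3084, 2066, 2229 and 1025 had such a p in either direction. DESeq2 called 0, 1, 2, 1 and 0 genes, all lower, and 25, 520, 144, 97 and 32 of all genes in either direction. The single gene in Del(CBS1-2) and Del(CBS1-4) was Sox9, and the 2 genes in Del(CBS1-3) were Sox5 and Trps1.

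Proximal Del(CBS1-2) limbs had 25 of 32 genes with all libraries above WT, against 13.5% of all genes, and the unadjusted count of 24 higher stands against 9.78%. Comp had 19.9, 22.5 and 24.0 CPM in Del(CBS1-2) and 3.88, 9.58 and 1.57 CPM in WT (2.12 ± 0.60, edgeR adjusted p = 0.0827). Matn1 had 117, 114 and 112 CPM in Del(CBS1-2) and 33.2, 59.4 and 42.6 CPM in WT (1.33 ± 0.38, edgeR adjusted p = 0.0838). The WT libraries of both genes were spread more than those of Del(CBS1-2). Acan had 266, 251 and 254 CPM in Del(CBS1-2) and 116, 156 and 135 CPM in WT (0.92 ± 0.26, edgeR adjusted p = 0.0863). Sox9 went the other way, with 239, 247 and 207 CPM in Del(CBS1-2) and 304, 279.7 and 334 CPM in WT (-0.41 ± 0.10, edgeR adjusted p = 0.0703, DESeq2 0.0076). The muscle genes summed to 3433 to 3730.1 CPM in Del(CBS1-2) and 2542 to 2913 CPM in WT, and with the muscle score as a covariate the median of the cartilage genes was 0.07, with 0 higher and 3 lower at an unadjusted p under 0.05. The muscle sums did not overlap between the groups, so the covariate cannot tell muscle content from the allele. Other marker sums did not overlap between the groups either. Tendon genes summed to 312 to 367 CPM in Del(CBS1-2) and 223 to 263 CPM in WT, ectoderm genes to 583 to 621 CPM in Del(CBS1-2) and 388 to 529.8 CPM in WT, and endothelial genes to 469 to 500.4 CPM in Del(CBS1-2) and 409 to 421 CPM in WT. Macrophage genes summed to 91.7 to 103 CPM in Del(CBS1-2) and 70.5 to 81.5 CPM in WT. Proliferation genes were lower, at 1456 to 1545 CPM in Del(CBS1-2) and 1752 to 1879 CPM in WT, and so were erythroid genes, at 1824 to 1866 CPM in Del(CBS1-2) and 1904 to 2346 CPM in WT. The part of these markers was not tested. A fit of only the 6 libraries compared called 20 genes higher and 2 lower, and leaving out WT replicate 2 called 1 higher and 1 lower. The number of all genes called in these fits is not given here.

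Proximal Del(CBS1-4) had 17 of 32 genes with all libraries above WT, against 7.96% of all genes, and the unadjusted count of 19 higher stands against 6.87%. Replicate 3 was the highest Del(CBS1-4) embryo for most of the genes. Acan had 173, 170.2 and 341 CPM in Del(CBS1-4) and 116, 156 and 135 CPM in WT (0.75 ± 0.27). Sox9 had 232, 219.8 and 207 CPM in Del(CBS1-4) and 304, 279.7 and 334 CPM in WT (-0.48 ± 0.10, edgeR adjusted p = 0.168, DESeq2 0.00383). Every Del(CBS1-4) library was below every WT library for Sox9. With the muscle score as a covariate 9 genes higher and 2 lower had an unadjusted p under 0.05, and the median was 0.22. Muscle genes summed to 2554 to 3505 CPM in Del(CBS1-4) and 2542 to 2913 CPM in WT, and tendon genes to 263 to 350.4 CPM in Del(CBS1-4) and 223 to 263 CPM in WT. Osteoblast genes summed to 27.0 to 38.9 CPM in Del(CBS1-4) and 15.5 to 25.3 CPM in WT. The part of the tendon and osteoblast genes was not tested. Leaving out WT replicate 2, the proximal WT library with the highest sum of distal limb genes, gave 2 called genes here.

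The line Del(CBS1-2) was also set against its neighbours in the series. This step was chosen with earlier results of these data known. Del(CBS1-4), whose distal median over WT was 0.69 beside 0.62 in Del(CBS1-2), was not set against its neighbours. The steps therefore do not show a pattern particular to Del(CBS1-2). By their sex-linked genes, all 3 Del(CBS1-2) embryos were female, while Del(CBS1) and Del(CBS1-3) each had 1 female and 2 male embryos. The part of sex in these steps was not tested. Over Del(CBS1) in distal tissue, 3 of 31 genes were called higher and 0 lower, against 2.47% of all genes, and these were Col10a1 (0.91 ± 0.21), Col2a1 (0.61 ± 0.15) and Col11a1 (0.79 ± 0.19). Col2a1 had 1529, 1559 and 1522 CPM in Del(CBS1-2) and 934, 999.8 and 1039.9 CPM in Del(CBS1), with no overlap (edgeR adjusted p = 0.0401). Col10a1 had 4.22, 4.62 and 3.38 CPM in Del(CBS1-2) and 2.23, 2.57 and 1.60 CPM in Del(CBS1) (edgeR adjusted p = 0.0327). Col11a1 had 288, 298 and 246 CPM in Del(CBS1-2) and 184, 137 and 154 CPM in Del(CBS1) (edgeR adjusted p = 0.0408). Leaving out any 1 of the 6 libraries ended these calls in all but 1 case, Del(CBS1) replicate 1, without which 1 gene was called. With the muscle score as a covariate, or in limma on log2(FPKM + 1), none of the 31 was called. DESeq2 called 9 of the 31 higher, and 740 of all genes in either direction. The covariate left 14 genes higher and 0 lower at an unadjusted p under 0.05, with the share of all genes not given. Joint interzone genes summed to 659 to 711 CPM in Del(CBS1-2) and 364 to 509.7 CPM in Del(CBS1), and muscle genes to 93.9 to 181 CPM in Del(CBS1-2) and at most 128 CPM in Del(CBS1), where the groups overlapped. Other sums did not overlap. In Del(CBS1-2) and Del(CBS1), tendon genes summed to 99.3 to 115 and 69.9 to 77.0 CPM, and nerve and Schwann genes to 74.1 to 76.7 and 62.2 to 65.3 CPM. Endothelial genes summed to 351 to 362 and 336 to 348 CPM. Lower in Del(CBS1-2) were proliferation (2403 to 2506 and 2540 to 2622 CPM), distal limb (2223 to 2400 and 2437 to 2512 CPM) and osteoblast genes (7.81 to 10.3 and 11.7 to 13.0 CPM). The part of these markers was not tested. In proximal tissue 1 of 32 genes was called, against 1.49% of all genes. It was Comp, with 19.9, 22.5 and 24.0 CPM in Del(CBS1-2) and 4.44, 1.36 and 3.32 CPM in Del(CBS1) (2.85 ± 0.65, edgeR adjusted p = 0.0378). That count was 0 with the muscle score as a covariate. It became 2 without Del(CBS1) replicate 1, and 0 without Del(CBS1) replicate 2 or any of the 3 Del(CBS1-2) replicates.

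Del(CBS1-3), which lacks 1 site more, had lower values than Del(CBS1-2). In distal tissue 12 of 31 genes were called lower and 1 higher, against 6.53% of all genes, and the median was -0.72. Fgfr3 had 66.7, 60.0 and 64.5 CPM in Del(CBS1-3) and 93.5, 117 and 109 CPM in Del(CBS1-2) (-0.73 ± 0.14, edgeR adjusted p = 0.00763). Pth1r had 79.7, 97.0 and 94.6 CPM in Del(CBS1-3) and 135, 136 and 124 CPM in Del(CBS1-2) (-0.54 ± 0.11, edgeR adjusted p = 0.0139). Both receptors were lower in every Del(CBS1-3) library. Col11a2 had 49.8, 79.6 and 33.5 CPM in Del(CBS1-3) and 124, 139 and 119 CPM in Del(CBS1-2) (-1.22 ± 0.26). Matn3 had 1.85, 3.34 and 2.28 CPM in Del(CBS1-3) and 7.60, 6.90 and 4.75 CPM in Del(CBS1-2) (-1.36 ± 0.30). Replicate 2 was the highest Del(CBS1-3) library for both.

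Col27a1 had 123, 166 and 111 CPM in distal Del(CBS1-3) libraries and 213, 231 and 237 CPM in distal Del(CBS1-2) libraries (-0.76 ± 0.17). Runx3 had 2.60, 2.61 and 2.43 CPM in Del(CBS1-3) and 9.22, 8.84 and 4.32 CPM in Del(CBS1-2) (-1.54 ± 0.38). For Runx3 the 3 Del(CBS1-3) embryos were nearly equal. Chst11 had 60.2, 61.1 and 53.9 CPM in Del(CBS1-3) and 77.2, 83.0 and 75.2 CPM in Del(CBS1-2) (-0.42 ± 0.10). Col9a3 had 163, 259.8 and 131 CPM in Del(CBS1-3) and 320.1, 324 and 303 CPM in Del(CBS1-2) (-0.77 ± 0.21). The other genes called lower were Col11a1 (-0.72 ± 0.19), Susd5 (-1.10 ± 0.31), Acan (-1.32 ± 0.38) and Wwp2 (-0.66 ± 0.19). Comp alone was called higher, with a mean of 2.67 ± 0.601 CPM in Del(CBS1-3) and 0.773 ± 0.0838 CPM in Del(CBS1-2) (1.79 ± 0.52). Without Del(CBS1-3) replicate 2, 20 genes were called, all lower. Without Del(CBS1-3) replicates 1 or 3 the counts were 1 and 2, and without Del(CBS1-2) replicates 1, 2 or 3 they were 4, 1 and 5. With the muscle score as a covariate 1 gene, Fgfr3, was called, and 12 genes lower and 1 higher had an unadjusted p under 0.05. In limma on log2(FPKM + 1) without a filter on low values, 0 were called. Summed muscle genes were lower in each Del(CBS1-3) library than the lowest Del(CBS1-2) library, which had 93.9 CPM. The covariate therefore cannot tell muscle content from the line here. Joint interzone genes summed to 368 to 593 CPM in Del(CBS1-3) and 659 to 711 CPM in Del(CBS1-2). Ectoderm genes summed to 534 to 615 CPM in Del(CBS1-3) and 620 to 725 CPM in Del(CBS1-2), and endothelial genes to 330 to 346 and 351 to 362 CPM. Erythroid genes were higher, at 2336 to 3317 CPM in Del(CBS1-3) and 2168 to 2277 CPM in Del(CBS1-2). The part of these markers was not tested.

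In proximal tissue 7 of 32 genes were called lower in Del(CBS1-3) than in Del(CBS1-2) and 0 higher, against 7.27% of all genes. Fgfr3 had 60.4, 73.3 and 66.5 CPM in Del(CBS1-3) and 95.1, 93.0 and 91.6 CPM in Del(CBS1-2) (-0.47 ± 0.10, edgeR adjusted p = 0.0174). Col27a1 had 199.9, 225 and 197 CPM in Del(CBS1-3) and 277, 282 and 278 CPM in Del(CBS1-2) (-0.42 ± 0.10). These did not overlap between the lines. Col11a2 had 149, 245 and 142 CPM in Del(CBS1-3) and 351, 337 and 339 CPM in Del(CBS1-2) (-0.93 ± 0.23). Acan had 100.4, 173 and 92.5 CPM in Del(CBS1-3) and 266, 251 and 254 CPM in Del(CBS1-2) (-1.07 ± 0.27). In both genes Del(CBS1-3) replicate 2 came nearest to Del(CBS1-2). Col11a1 had 352, 531 and 334 CPM in Del(CBS1-3) and 684, 673 and 649 CPM in Del(CBS1-2) (-0.71 ± 0.20). Col9a2 had 418, 514 and 399 CPM in Del(CBS1-3) and 588, 616 and 550.2 CPM in Del(CBS1-2) (-0.39 ± 0.12). For Col2a1 the values were 2071, 2484 and 2108 CPM in Del(CBS1-3) and 2882, 2813 and 2951 CPM in Del(CBS1-2) (-0.37 ± 0.11). All 3 were lower in every Del(CBS1-3) library. Without Del(CBS1-3) replicate 2 the count was 19, and without any other single library it was 0 or 1. With the muscle score as a covariate it was 7, also all lower. Joint interzone genes summed to 379.8 to 408 CPM in Del(CBS1-3) and 461 to 501 CPM in Del(CBS1-2), erythroid genes to 2364 to 2864 CPM in Del(CBS1-3) and 1824 to 1866 CPM in Del(CBS1-2), and proliferation genes to 1681 to 1847 CPM in Del(CBS1-3) and 1456 to 1545 CPM in Del(CBS1-2). The part of these markers was not tested. These steps share the Del(CBS1-2) libraries with the comparison against WT.

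Whether an allele acted differently in the 2 tissues was tested as an interaction in all 36 libraries. Of the 33 genes tested, 0 were called in any allele by edgeR or DESeq2. Of all genes, 0.0%, 0.0491%, 0.00614%, 0.0184% and 0.0% were called, in the order of the alleles. Genes at an unadjusted p under 0.05 numbered 4 higher and 1 lower in both Del(CBS1-2) and Del(CBS1-4), and 0 in the other 3. Of all 16292 genes, 345, 1815, 642, 995 and 966 had such a p in either direction, in the order of the alleles. Runx3 came closest, since its proximal libraries averaged 27.8 ± 2.22 CPM in Del(CBS1-2) and 27.6 ± 6.43 CPM in WT and overlapped. The distal change of Del(CBS1-2) over WT exceeded the proximal one by 1.79 ± 0.38 on the log2 scale (edgeR adjusted p = 0.0519). With the embryo as a block it was 1.76 ± 0.38 (adjusted p = 0.0342) and called, where 0.712% of all genes were. Runx3 was also called without distal WT replicate 1, proximal WT replicate 2 or distal Del(CBS1-2) replicate 3. In Del(CBS1-4) the Runx3 difference was 1.67 ± 0.38 (edgeR adjusted p = 0.232), and it was called without distal Del(CBS1-4) replicate 2. Comp lay at the other end in Del(CBS1-2) (-3.15 ± 0.99, edgeR adjusted p = 0.194), with 0.774, 0.856 and 0.688 CPM in distal Del(CBS1-2) and 2.94, 0.419 and 1.42 CPM in distal WT libraries beside the proximal values above.

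How far the embryos of a line differed in cartilage transcripts varied between the lines. In Del(CBS1-3), 22 of 28 genes with enough counts had the same embryo highest in distal and proximal tissue, mostly replicate 2, and in Del(CBS1-5) it was 19 of 28, mostly replicate 3. The counts were 18 of 30 in Del(CBS1-4), 16 of 29 in WT, 14 of 29 in Del(CBS1) and 6 of 31 in Del(CBS1-2). Over all genes with as many counts the share was 44.9% in Del(CBS1-3), 37.1% in Del(CBS1-5), 44.6% in WT, 39.2% in Del(CBS1) and 42.9% in Del(CBS1-2), and in Del(CBS1-4) it was 5059 of 14066 genes. Of the listed genes it was 78.6% in Del(CBS1-3), 67.9% in Del(CBS1-5), 60.0% in Del(CBS1-4) and 55.2% in WT. It was 48.3% in Del(CBS1) and 19.4% in Del(CBS1-2), the only line below its share of all genes. The genes of an embryo are not independent, so these shares are a description. The summed level of the 34 genes was 3779, 4958 and 3233 CPM in distal Del(CBS1-3) libraries and 6096, 7521 and 6107 CPM in proximal ones. In Del(CBS1-2) it was 5558, 5763 and 5391 CPM distally and 8796, 8743 and 8499 CPM proximally, and in WT 4038, 4534 and 3586 CPM distally and 6646, 7041 and 7032 CPM proximally. In Del(CBS1-4) the summed level was 5845, 4970 and 5870 CPM distally and 7457, 7484 and 10247.5 CPM proximally. The lowest Del(CBS1-2) embryo was thus above the highest WT embryo in both tissues. The same held for the lowest Del(CBS1-4) embryo. Del(CBS1-2) was the line with the smallest spread between embryos, with a median ratio of highest to lowest library of 1.23 distally and 1.15 proximally, against 1.60 and 1.22 in WT. The widest distal spread was that of Del(CBS1-3), at 1.73.

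**Figure D5:**
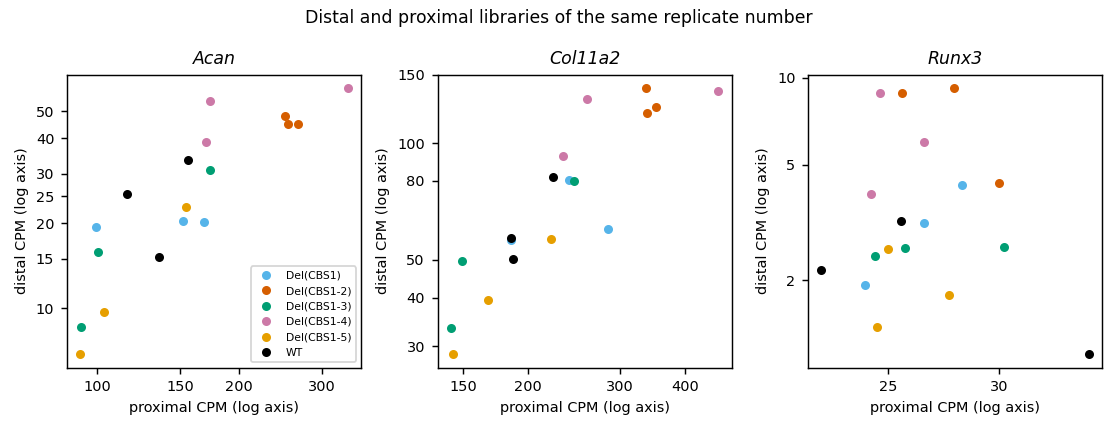
Distal against proximal CPM of Acan, Col11a2 and Runx3 on log axes, 1 point per replicate number and genotype, 18 points in each panel. Acan and Col11a2 are high or low in both tissues of an embryo, with Del(CBS1-2) and Del(CBS1-4) towards the upper right, whereas Runx3 differs mainly along the distal axis.

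Genes around the matrix programme were read from 3 further lists. Of 36 chondrogenic regulators and growth plate genes, 33 were tested between the WT tissues, 5 were higher and 16 lower distally, against 30.7% of all genes called, and the median was -0.31. Sox8 (-2.25 ± 0.14), a relative of Sox9, Fgf18 (-1.45 ± 0.11), a ligand of FGFR3, Mef2c (-1.72 ± 0.18), a hypertrophy factor, and Ihh (-1.76 ± 0.19), the hedgehog ligand of the growth plate, gave the smallest p. In distal Del(CBS1-2) over WT, 2 of 32 were higher and 0 lower, against 10.5% of all genes called, so this list was not above the background. They were Ihh, at 10.4 CPM in Del(CBS1-2) and 4.01 CPM in WT (1.36 ± 0.39), and the joint ligand gene Gdf5, at 180.3 CPM in Del(CBS1-2) and 98.8 CPM in WT (0.85 ± 0.25). In proximal Del(CBS1-2), Sox11 was lower (-0.50 ± 0.09) and no other of 33 was called, against 0.721% of all genes.

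Of 39 genes that make, sulfate and secrete proteoglycans and collagens, 38 were tested between the WT tissues, and 24 were lower and 0 higher distally, against 30.7% of all genes called, with a median of -0.37. Sec24d (-1.20 ± 0.09), a coat protein for collagen export, and P3h1 (-0.69 ± 0.06), a collagen prolyl hydroxylase, led them. In distal Del(CBS1-2) over WT, 11 of 38 were higher and 0 lower, against 10.5% of all genes called, with a median of 0.16. P3h1 (0.45 ± 0.08), its partner Crtap (0.36 ± 0.08), the collagen chaperone gene Serpinh1 (0.24 ± 0.06) and Chpf2 (0.27 ± 0.06), which extends chondroitin chains, had the smallest p. P3h1 was also the 1 gene of the list higher in proximal Del(CBS1-2), at 136 CPM in Del(CBS1-2) and 101 CPM in WT (0.42 ± 0.10).

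Matrix genes of skeletal tissue outside cartilage followed both patterns. Of 29 listed, 28 were in the count table and 27 were tested between the WT tissues, and 24 were lower and 0 higher distally, against 30.7% of all genes called, with a median of -1.48. In distal Del(CBS1-2) over WT, 7 of 26 were higher and 0 lower, against 10.5% of all genes called, with a median of 0.55. Thbs1 (0.77 ± 0.15), Col6a2 (0.55 ± 0.12), Sparc (0.46 ± 0.11) and Col5a1 (0.42 ± 0.11) had the smallest p. The summed level of the 28 genes was 6385 to 6775 CPM in distal Del(CBS1-2) libraries and 5023 to 5738 CPM in distal WT libraries, so higher values in this line were not limited to genes of cartilage.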

How the data were processed

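Poly(A)-selected stranded RNA (TruSeq) was sequenced as single-end reads of 50 nt, per the labels' protocols. The deposited count table holds raw read counts per gene, and the deposited FPKM table holds Cufflinks values, per the file headers. Both tables were made by the authors. Per the submitters' processing notes, the tools included STAR 2.7.0, Cufflinks 2.2.1, cutadapt 1.16 and bedtools 2.27.1, with build mm10, and whether counting used strand is not given in the sources used here. Depth was 11062069 to 17727891 counts per library.

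Counts were tested with edgeR 4.0.16 in R 4.3.3 (TMM scaling, its default count filter, quasi-likelihood F test, Benjamini-Hochberg adjustment over all genes tested, threshold 0.05). One fit per genotype compared the tissues (6 libraries), one per tissue compared the genotypes (18 libraries), and one of 36 libraries tested interactions. CPM were scaled by TMM over all 36 libraries. FPKM served for levels between genes and, as log2(FPKM + 1), for limma 3.58.1. DESeq2 1.42.0, other scalings, filters and pseudocounts, a muscle score as covariate, blocks and fits without 1 library were alternatives. The tests were checked on simulated data. Replicates are separate forelimb pairs, and all differed beyond sampling noise, with a chi-square per degree of freedom of 2.66 to 21.2.

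Replicate numbers pair distal and proximal libraries: over 12703 genes, 18 of 18 same-numbered pairs had correlated deviations (0.228 to 0.665), while the highest of differently numbered pairs was 0.0462. A number is therefore called an embryo, though the labels do not say so. The blocked value stands beside the WT tissue comparison and the interactions where it changes a call. Between genotypes of a tissue the numbers paired Del(CBS1-3) with WT alone (6 of 6 correlations above 0.1), where the block changed no call.

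The 34 genes and all lists were chosen with earlier results of these data known. In each comparison up to 8 called genes with the smallest p have values in every library, other called genes have a fold change, and up to 4 called genes of a further list are named. A lower bound against a group at 0 uses 3 counts over the group. Sex was called from sex-linked genes.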

Additional observations from a re-analysis of the deposited data

Results flagged for a closer look

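Runx3 differed between the tissues in its response to the Del(CBS1-2) allele when distal and proximal libraries of an embryo were paired. The distal log2 fold change over WT was 1.77 and the proximal one 0.01, and the difference, tested in edgeR with the embryo as a block, was 1.76 ± 0.38 (adjusted p = 0.0342). Runx3 had 9.22, 8.84 and 4.32 CPM in distal Del(CBS1-2) libraries and 3.21, 2.17 and 1.11 CPM in distal WT libraries. Without the block the adjusted p of the same difference was 0.0519 in edgeR.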

How the results depend on the processing

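The 189 results for single genes kept their direction under all 2864 values recomputed with alternatives, of which 349 no longer passed the threshold and 0 reversed. Counts of called genes moved more than 1.5 times as follows, and the cause was not tested. The number of all genes called is not given for these settings or for fits without 1 library. These counts therefore do not compare the listed genes with other genes. Without a count filter, distal alleles over WT gave 2, 23, 6, 26 and 15 in the order Del(CBS1) to Del(CBS1-5), proximal alleles 4, 27, 5, 22 and 6, and interactions 1, 9, 2, 13 and 5. Without that filter Del(CBS1-2) over Del(CBS1) gave 26 distally and 23 proximally, and Del(CBS1-3) over Del(CBS1-2) gave 25 and 24. With log2(FPKM + 1) and no filter, the Del(CBS1-4) tissue comparison gave 18, distal Del(CBS1-2) over WT 1, Del(CBS1-2) over Del(CBS1) 0 in both tissues, and Del(CBS1-3) over Del(CBS1-2) 0 distally and 1 proximally. With filtered log2(FPKM + 1), distal Del(CBS1-2) over Del(CBS1) gave 0 and proximal Del(CBS1-3) over Del(CBS1-2) 3. With log2(FPKM + 0.1), Del(CBS1-2) over Del(CBS1) gave 0 in both tissues, and Del(CBS1-3) over Del(CBS1-2) gave 8 distally and 3 proximally. DESeq2 gave 5 for distal Del(CBS1-4), 9 distally and 2 proximally for Del(CBS1-2) over Del(CBS1), and 1, 2 and 1 for proximal Del(CBS1-2), Del(CBS1-3) and Del(CBS1-4).

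With the replicate block, Del(CBS1-2) over Del(CBS1) gave 0 in both tissues, Del(CBS1-3) over Del(CBS1-2) 7 distally and 4 proximally, distal Del(CBS1-2) over WT 7, and the Del(CBS1-2) interaction 1. Within a tissue, 8 of 30 same-numbered pairs of an allele and WT correlated above 0.1 (-0.259 to 0.465), 6 of them the 6 pairs of Del(CBS1-3), for which the block changed no call. In the other alleles, and in the comparisons of neighbouring alleles (0 of 12 above 0.1), the samples share only a number. In the tissue comparisons the embryo block added calls, given here with their direction in distal tissue. They were Chad lower and Sox6 higher in WT, and Sox5 higher in Del(CBS1). In Del(CBS1-3) they were Col9a1 higher and Papss2, Col9a3, Pth1r and Chst11 lower. In Del(CBS1-4) they were Chst11 and Fgfr3 higher and Col9a3 and Chad lower. In Del(CBS1-5) they were Sox6 higher and Comp and Chad lower. With the muscle covariate, distal Del(CBS1-2) over WT gave 0, Del(CBS1-2) over Del(CBS1) 0 in both tissues, and distal Del(CBS1-3) over Del(CBS1-2) 1. In fits of only the 6 libraries compared, Del(CBS1-2) over Del(CBS1) gave 21 distally and 15 proximally, proximal Del(CBS1-2) over WT 22 and proximal Del(CBS1-3) over Del(CBS1-2) 15.

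Leaving out 1 library gave counts of 1 to 12 for distal Del(CBS1-2) over WT, 0 to 10 for distal Del(CBS1-4), 0 to 2 for proximal Del(CBS1-2) and Del(CBS1-4), 0 to 1 for distal and 0 to 2 for proximal Del(CBS1-2) over Del(CBS1), 1 to 20 for distal and 0 to 19 for proximal Del(CBS1-3) over Del(CBS1-2), and 0 to 1 for the Del(CBS1-2) and Del(CBS1-4) interactions. Other scalings shifted the median of all genes by at most 0.0182 (log2). Genes of few counts, such as Snorc, Ucma, Epyc and Col10a1, are limited by depth.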
